A study of Homo sapiens with 4 samples.

Results

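The YAP and TEAD group comprised 10 genes, taken by symbol from the 25559 gene symbols in the count tables of HGC-27 cells. They are the coactivators YAP1 and WWTR1 (which encodes TAZ), the DNA-binding partners TEAD1, TEAD2, TEAD3 and TEAD4, and CTGF, CYR61, AMOTL2 and LATS2, which are widely used as readouts of YAP activity. All 10 were present in every table, and all 10 passed the filter on low counts that left 12967 genes for testing. CTGF and CYR61 are named CCN2 and CCN1 in current annotation, and the symbols of the tables are kept here.

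HGC-27 is a gastric cancer cell line from a metastatic lymph node. Poly(A) RNA of 2 libraries of control cells, labelled wildtype, was compared with that of 2 libraries of cells labelled RUNX3 knock-out, called RUNX3 KO here. The knockout was made with a lentiviral Cas9 vector and a guide against the coding sequence of RUNX3, followed by puromycin selection and single-cell cloning. The number of clones, and whether the control cells carried a vector or had been cloned, are not given in the sources used here, so a difference between clones and an effect of RUNX3 cannot be told apart, and the p-values measure only the spread between these libraries. No other agent or allele was labelled in either group.

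In the Hippo pathway, the kinases MST1 and MST2 (STK4 and STK3), with the scaffolds SAV1, NF2 and the WWC proteins, activate LATS1 and LATS2, which phosphorylate YAP and TAZ and hold them in the cytoplasm. Unphosphorylated YAP and TAZ enter the nucleus, where they bind TEAD factors at DNA. Among the genes that YAP, TAZ and TEAD switch on are LATS2 and AMOTL2, which themselves restrain YAP. Because YAP is controlled largely by phosphorylation and location, its RNA level is not a measure of its activity.

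The TEAD recognition letters in promoters are shown first, because CTGF is the usual example of a TEAD-driven gene. Windows from 250 bases before to 50 after the start of each gene were taken from RefSeq (GRCh38.p14) and searched on both strands for the TEAD letters GGAATG and for the RUNX letters TGTGGT and TGCGGT, of which the first bases can be shared with the end of GGAATG, although no match of the 7 genes below did so. A total of 7 of the 10 genes had a window there, 10 windows in all since WWTR1, TEAD2 and AMOTL2 had 2 each, and TEAD1, TEAD4 and CYR61 had none. GGAATG was present in 4 of these 10 windows (1 each of YAP1, CTGF, AMOTL2 and LATS2) and in 14.0% of all 35116 windows. CTGF had 3 matches, starting 169, 104 and 95 bases before the start, and 0.128% of all windows had at least 3. The match of AMOTL2 lies 69 bases before its start, and that of LATS2 10 bases after. Either RUNX sequence was present in 3 of the 10 windows (1 each of WWTR1, AMOTL2 and LATS2) and in 19.6% of all windows. Such a match describes the sequence and does not show binding. The 250 bases before the start of CTGF (GRCh37 chr6:132272513-132272762, minus strand) and the sites in the second window of AMOTL2 (chr3:134093341-134093370, minus strand) and in LATS2 (chr13:21635699-21635728, minus strand) are printed below as read along the gene, with GGAATG or its reverse complement in capitals.
CTGF: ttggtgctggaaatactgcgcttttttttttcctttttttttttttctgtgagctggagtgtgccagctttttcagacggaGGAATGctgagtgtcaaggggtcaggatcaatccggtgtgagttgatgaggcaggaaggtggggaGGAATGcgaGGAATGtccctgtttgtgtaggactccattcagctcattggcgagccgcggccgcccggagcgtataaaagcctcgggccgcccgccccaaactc
AMOTL2: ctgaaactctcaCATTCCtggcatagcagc
LATS2: cgtgacgcccgtGGAATGccaacaatgtag

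Reads counted on genes ranged from 11731401 to 11733407 in control libraries and from 11898276 to 12110876 in RUNX3 KO libraries. Counts of RUNX3, the targeted gene, were 351 and 308 in control and 225 and 185 in RUNX3 KO libraries (log2 fold change -0.70, SE 0.0961, with the call lost without RUNX3 KO replicate 2), so its RNA was lower but still counted. The paper reports a check of the deletion in mRNA and protein, with RUNX3 protein absent from the knockout cells by immunoblot. Counts of RNA do not measure the protein. The RNAs of RUNX1 and RUNX2 were also lower, by -0.50 and -1.91 on the log2 scale. Of the epithelial markers, EPCAM had at most 1 count, KRT19 had 0 in every library, CDH1 had 15 to 32 counts and KRT18 0 to 14, whereas VIM had 33828 to 57834, so the defining epithelial genes were near absent from this carcinoma line. KRT8 had 19 and 11 counts in control and 72 and 81 in RUNX3 KO libraries, CDH1 15 and 21 against 30 and 32, and VIM 57834 and 57486 against 33828 and 35307. KRT8 and KRT18 have near-identical pseudogene copies, so their counts are uncertain. KRT8, CDH1 and VIM differed between the conditions, as did TEAD3, TEAD4, CTGF, CYR61, AMOTL2 and LATS2 of the genes described here. The part of these markers in the results was not tested. CDH2, the mesenchymal cadherin, had at most 3 counts. Among markers of blood, endothelial and muscle cells, PTPRC, LYZ, MYH11 and DES had at most 6 counts in any library, and CD3E, PECAM1, CDH5 and KDR had 0.

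The coactivator RNAs differed by at most 1.06-fold between the conditions, whereas all 4 target genes and 2 of the 4 TEAD genes rose by 1.25-fold to 1.74-fold in RUNX3 KO libraries. In bulk RNA, fewer cells with a transcript and less of it per cell cannot be told apart. At a Benjamini-Hochberg adjusted p under 0.05 over the 12967 genes (quasi-likelihood test of edgeR), 7 of the 10 genes were higher and 1 was lower. In the same comparison 24.5% of all tested genes were higher and 24.4% were lower, 48.9% in all. Among the 7930 tested genes whose mean count lay between those of the lowest and highest of the 10 genes (168 and 2569 counts), 28.9% were higher and 24.6% lower, 53.5% in all. Levels of the conditions did not overlap for 8 of the 10 genes, of which 7 were higher and 1 lower in RUNX3 KO libraries, against 36.3% and 36.4% of all tested genes. The median log2 fold change was 0.34 over the 10 genes and -0.0021 over all tested genes. The study required a fold change of at least 2 with an unadjusted p of at most 0.05. With these thresholds on the edgeR fit, none of the 10 genes was called, while 4.01% of all genes were lower and 2.11% higher. The study used another normalization and reported more genes in each direction, so this is not its own result for these genes. The count by adjusted p from edgeR included YAP1 and TEAD1, each at a fold change within 7% of no change, and these calls were lost in several other fits. By DESeq2, 6 of the 10 genes were higher and 0 lower, among 1829 higher and 1863 lower genes in all. Without RUNX3 KO replicate 1, 5 of the 10 were higher and 0 lower, with 1483 and 1531 genes in all, and without RUNX3 KO replicate 2, 6 and 0, with 1285 and 1378 in all.

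**Figure D1:**
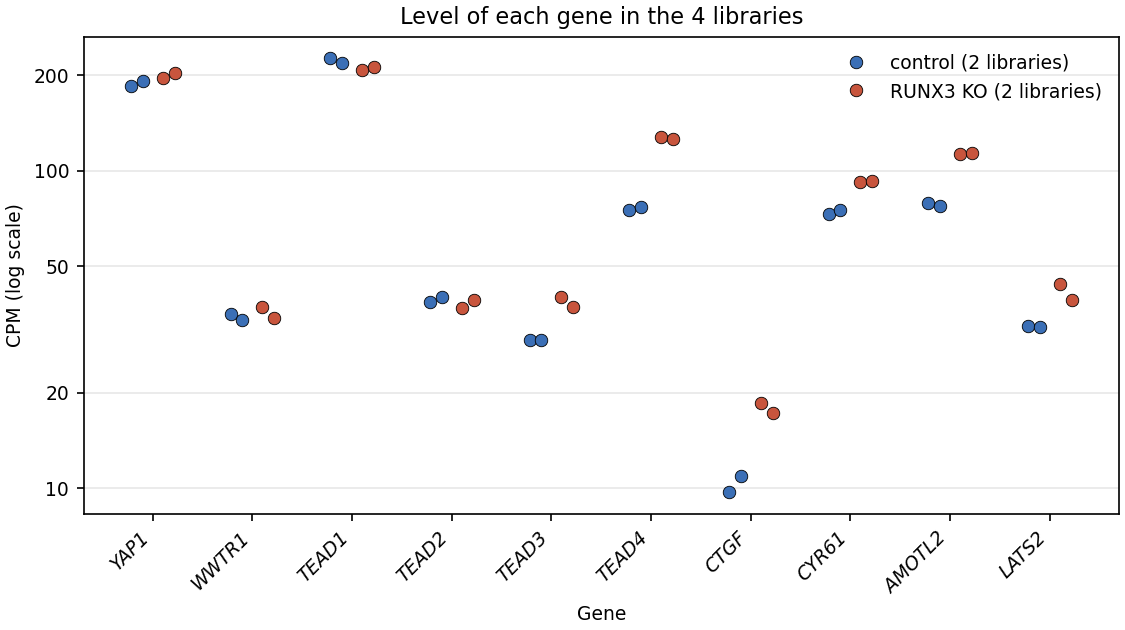
Level of each of the 10 genes in CPM (counts scaled to a common library total by TMM, log axis) in the 2 control and 2 RUNX3 KO libraries, each point being 1 library. TEAD4, CTGF, CYR61 and AMOTL2 separate clearly by condition, while WWTR1 and TEAD2 overlap.

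YAP1, on chromosome 11 from 101981178 to 102104155 (hg19, plus strand), encodes the coactivator YAP. With 185 and 192 CPM (counts scaled to a common library total) in control, it stood at 196 and 203 CPM in RUNX3 KO libraries. The groups did not overlap, but the gap between them was smaller than the gap between the libraries of either group. The log2 fold change was 0.08 (95% interval 0.01 to 0.15, adjusted p = 0.0470 by edgeR), so a change of more than 1.11-fold lies outside the interval. The call was lost in 9 of 13 alternative fits, with adjusted p-values up to 0.369 by the same edgeR test. WWTR1, on chromosome 3 from 149235022 to 149454501 (minus strand), encodes the paralog TAZ. Its level was 35.3 and 34.0 CPM in control and 37.2 and 34.4 CPM in RUNX3 KO libraries, with overlapping groups. The log2 fold change of WWTR1 was 0.05 (95% interval -0.10 to 0.20, adjusted p = 0.635 by edgeR), and it turned to -0.01 without RUNX3 KO replicate 1. Noncoding genes on the other strand overlap 9.95% of the exonic bases of YAP1 and 9.05% of those of WWTR1, and whether the counting used strand is not given in the sources used here.

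Compared per length of exon, YAP1 was the more abundant coactivator RNA. It had 29.8 ± 0.816 CPM per kilobase (SD, n = 2) in control and 31.6 ± 0.746 in RUNX3 KO cells, against 4.15 ± 0.114 and 4.29 ± 0.233 for WWTR1. The ratio of WWTR1 to YAP1 in these units was 0.145 and 0.134 in control and 0.143 and 0.128 in RUNX3 KO libraries. The ratios of the conditions overlapped. With 2 libraries a condition, the smallest two-sided p of an exact permutation test is 0.333, so no test of this ratio was made.

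The 4 TEAD genes moved unequally. TEAD4, on chromosome 12 from 3068496 to 3149842 (plus strand), encodes a TEAD factor known from trophectoderm and muscle development. It rose from 75.3 and 76.8 CPM in control to 128 and 126 CPM in RUNX3 KO libraries. Every RUNX3 KO library lay well above both control libraries, by 1.67-fold (log2 fold change 0.74, SE 0.0457, adjusted p = 3.47e-26 by edgeR). TEAD3, on chromosome 6 from 35441374 to 35464856 (minus strand), known for its expression in placenta, rose from 29.2 and 29.3 to 39.9 and 37.1 CPM. The groups did not overlap, and the log2 fold change of TEAD3 was 0.39 (SE 0.0762, adjusted p = 7.05e-06 by edgeR).

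TEAD1, on chromosome 11 from 12695968 to 12966284 (plus strand), a widely expressed TEAD factor, had 226 and 219 CPM in control and 208 and 213 CPM in RUNX3 KO libraries. It was lower in RUNX3 KO cells by a small margin, with a log2 fold change of -0.08 (95% interval -0.15 to -0.01, adjusted p = 0.0393 by edgeR). This call was lost in 5 of 13 alternative fits, among them DESeq2 and the fits without control replicate 1 or without either RUNX3 KO replicate. TEAD2, on chromosome 19 from 49843852 to 49865714 (minus strand), known from early embryos, had 38.7 and 39.9 CPM in control and 36.9 and 39.3 CPM in RUNX3 KO libraries. The groups of TEAD2 overlapped, and the log2 fold change was -0.04 (95% interval -0.19 to 0.10, adjusted p = 0.638 by edgeR). Of its exonic bases, 10.7% overlap exons of CD37 on the other strand.

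**Figure D2:**
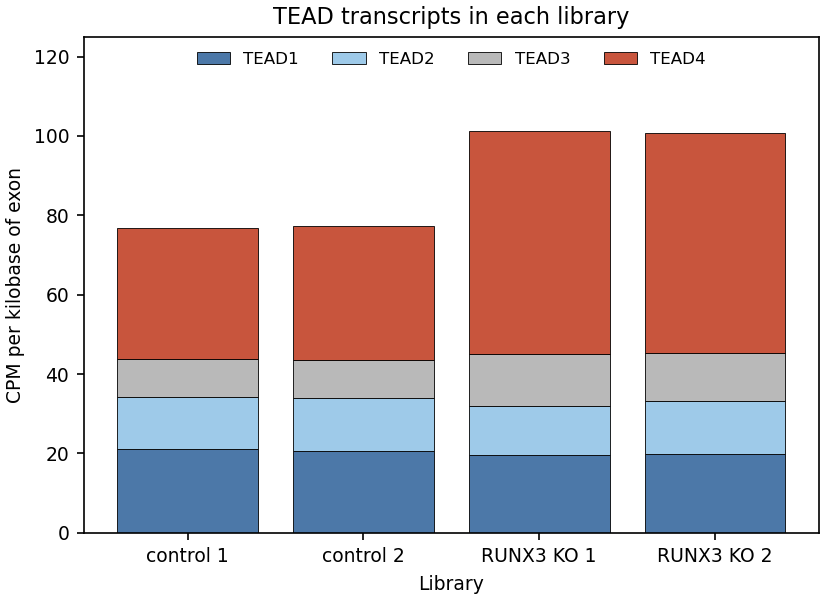
CPM per kilobase of exon of TEAD1, TEAD2, TEAD3 and TEAD4, stacked for each of the 4 libraries (linear axis from 0). The stack reaches 76.8 and 77.2 in control and 101 in each RUNX3 KO library, with TEAD4 making up the larger part of the difference.

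Per length of exon, TEAD4 was the most abundant of the 4 RNAs in each library. It made up 43.1% and 43.7% of the summed TEAD level in control and 55.6% and 55.1% in RUNX3 KO libraries. The share of TEAD1 went the other way, from 27.5% and 26.5% to 19.3% and 19.7%. TEAD2 made up 17.1% ± 0.308 (SD, n = 2) in control and 12.7% ± 0.621 in RUNX3 KO cells, and TEAD3 12.5% in each. The summed level was 77.0 ± 0.279 CPM per kilobase (SD, n = 2) in control and 101 ± 0.292 in RUNX3 KO cells, while TEAD1, TEAD2 and TEAD3 together had 43.6 ± 0.179 and 45.1 ± 0.227. These are descriptions of 2 libraries a condition, without a test. Shares of a sum fall when another member rises, so the lower share of TEAD2 is not a lower level.

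The genes around TEAD4 were mostly higher too. Of the 34 tested genes nearest to it (20 on one side and all that remained towards the end of the chromosome on the other), 29 had a log2 fold change above 0, their median being 0.39, and 3 lay at least as far from 0 as TEAD4. After this median was subtracted, 0.35 of the 0.74 remained. The neighbourhood medians of the other 9 genes lay between -0.15 and 0.13. Around TEAD3 the median over 40 tested genes was 0.02, and 0 of them moved as far. The part of the neighbourhood in the rise of TEAD4 was not tested.

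**Figure D3:**
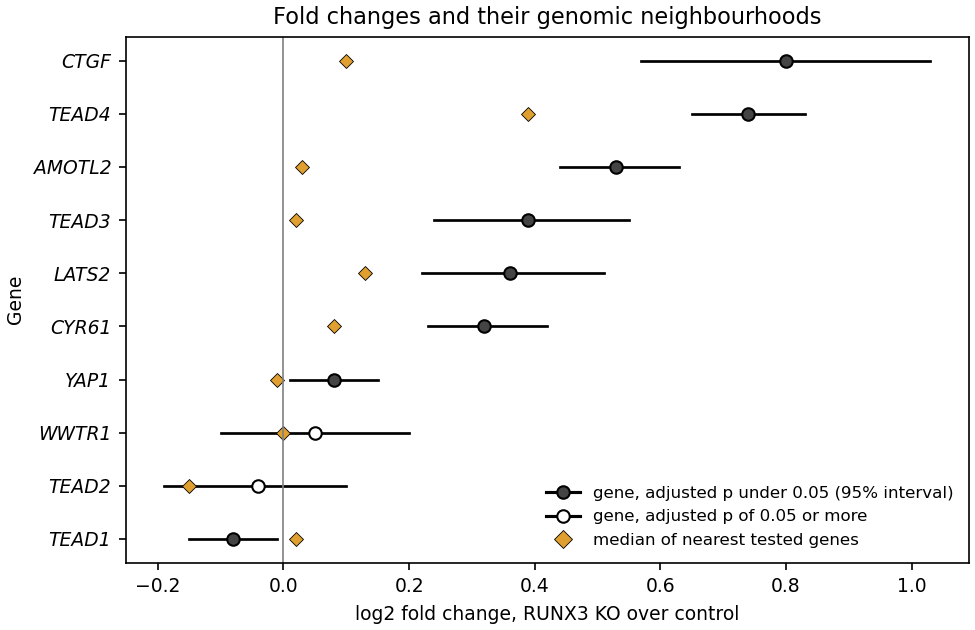
Log2 fold change of RUNX3 KO over control for each of the 10 genes (circles, with 95% intervals from edgeR, filled where the adjusted p was under 0.05) and the median log2 fold change of up to 40 nearest tested genes (diamonds). The 4 target genes, TEAD3 and TEAD4 lie to the right of 0 and of their neighbourhoods, and the diamond of TEAD4, at 0.39, stands apart from the others.

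All 4 target genes rose in RUNX3 KO cells. CTGF, on chromosome 6 from 132269316 to 132272512 (minus strand), encodes a secreted matricellular protein. It had the lowest counts of the 10 genes, with 115 and 129 in control and 220 and 208 in RUNX3 KO libraries. This corresponded to 9.74 and 10.9 CPM against 18.6 and 17.3 CPM, without overlap. No other of the 10 genes exceeded its log2 fold change of 0.80 (95% interval 0.57 to 1.03, adjusted p = 8.65e-09 by edgeR), although that of TEAD4, at 0.74, lay within this interval. Over 13 alternative fits the value of CTGF ranged from 0.72 to 0.88. The 3 GGAATG matches printed above lie before the start of this gene. A noncoding gene on the other strand overlaps 11.9% of its exonic bases.

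CYR61, on chromosome 1 from 86046444 to 86050272 (plus strand), encodes another secreted protein of the same CCN family. It rose from 73.0 and 75.1 CPM in control to 92.5 and 92.9 CPM in RUNX3 KO libraries. The groups did not overlap, and the rise of 1.25-fold was smaller than that of CTGF (log2 fold change 0.32, 95% interval 0.23 to 0.42, adjusted p = 2.54e-08 by edgeR). The 95% intervals of CTGF and CYR61 did not overlap, although the difference between the genes was not itself tested. NOV, the remaining tested gene of the CCN family, went the other way, from 44.1 and 44.7 CPM to 11.1 and 9.57 CPM (log2 fold change -2.10, SE 0.0941). WISP1, WISP2 and WISP3 had at most 1 count in any library.

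AMOTL2, on chromosome 3 from 134074189 to 134094321 (minus strand), encodes an angiomotin-like junction protein that binds YAP. It rose from 79.4 and 77.7 CPM to 113 and 114 CPM. The replicates lay close together and the conditions further apart, with a log2 fold change of 0.53 (95% interval 0.44 to 0.63, adjusted p = 1.04e-17 by edgeR). LATS2, on chromosome 13 from 21547175 to 21635725 (minus strand), encodes the kinase that phosphorylates YAP. Its level was 32.4 and 32.3 CPM in control and 43.9 and 39.3 CPM in RUNX3 KO libraries. The RUNX3 KO libraries differed from each other by more than the control libraries did, but both lay above them. The log2 fold change of LATS2 was 0.36 (SE 0.0738, adjusted p = 1.84e-05 by edgeR), and it fell to 0.29 with an adjusted p of 0.0530 by the same edgeR test without RUNX3 KO replicate 1. LATS1, its paralog, was at -0.15 on the log2 scale (SE 0.0899) and did not pass (adjusted p = 0.180 by edgeR).

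The order of the 10 genes by level, in CPM per kilobase of exon, differed little between the conditions at its ends. In control cells it ran from TEAD4 (33.4) through YAP1 (29.8), TEAD1 (20.8), CYR61 (19.7 and 20.3 in the 2 libraries), TEAD2 (13.2), AMOTL2 (12.1), TEAD3 (9.60), LATS2 (5.76) and CTGF (4.42) to WWTR1 (4.15). Libraries of neighbours in this order overlapped only for CTGF and WWTR1. In RUNX3 KO cells TEAD4 (55.9) and YAP1 (31.6) remained at the top and WWTR1 (4.29) at the bottom, while CYR61 (25.1) passed TEAD1 (19.7), AMOTL2 (17.5) passed TEAD2 (12.8), and CTGF (7.69) passed LATS2 (7.41). There the libraries of TEAD2 and TEAD3 (12.6) overlapped, as did those of CTGF and LATS2. Among 12148 tested genes with a length, TEAD4 moved from the 89.1 to the 93.9 percentile of level and CTGF from 41.7 to 56.9. The order depends on the length used. With the longest annotated transcript in place of all exons, CTGF (4.42) rather than WWTR1 (6.88) was lowest in control cells.

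The 4 target genes belong to a published signature of YAP targets, whose other genes went both ways. This signature of 22 genes holds the 4 target genes and 18 others, of which 17 were tested, NT5E having at most 7 counts. Of these 17 genes, 8 were lower, 3 were higher and 6 did not pass at an adjusted p under 0.05 by edgeR, while 24.4% of all tested genes were lower and 24.5% higher. Their median log2 fold change was -0.26, against -0.0021 for all genes. All 3 of the higher genes were near the threshold. PTPN14, ARHGEF17 and NUAK2 had log2 fold changes of 0.10, 0.11 and 0.98 and adjusted p-values of 0.0438 to 0.0445 by edgeR. Each lost its call in 7 or more of the alternative fits. NUAK2 had 9 and 7 counts in control and 14 and 18 in RUNX3 KO libraries. It reached the minimum count of 10 only in RUNX3 KO libraries, so its place among the higher genes carries no weight. By DESeq2, 5 of these genes were lower and 0 higher, with 3 higher by edgeR. Without RUNX3 KO replicate 1 or 2, 5 or 3 of them were lower and 0 higher, while 3 or 4 of the 4 target genes were higher.

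IGFBP3, a binding protein for insulin-like growth factors, fell furthest among the tested signature genes, from 81.8 and 83.0 CPM to 26.0 and 25.9 CPM (log2 fold change -1.67, SE 0.0648). MYOF, a membrane repair protein, fell from 16.2 and 15.2 to 9.15 and 9.07 CPM (log2 fold change -0.78, SE 0.123). TGFB2, a TGF-beta ligand, fell from 13.6 and 13.7 to 8.30 and 7.65 CPM (log2 fold change -0.77, SE 0.132). The groups did not overlap for any of these genes, and the adjusted p was at most 4.90e-07 by edgeR. IGFBP3 is among the genes that the study singled out from these libraries, and TGFB2 is in its lists of RUNX3 target genes, which carry values from these libraries, so neither is an independent example. AXL, a receptor tyrosine kinase, and F3, tissue factor, chosen here after their values were seen, had log2 fold changes of -0.38 and -0.88, with adjusted p-values of 0.000609 and 0.00117 by edgeR. The call of F3 was lost with DESeq2 and without either RUNX3 KO replicate.

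**Figure D4:**
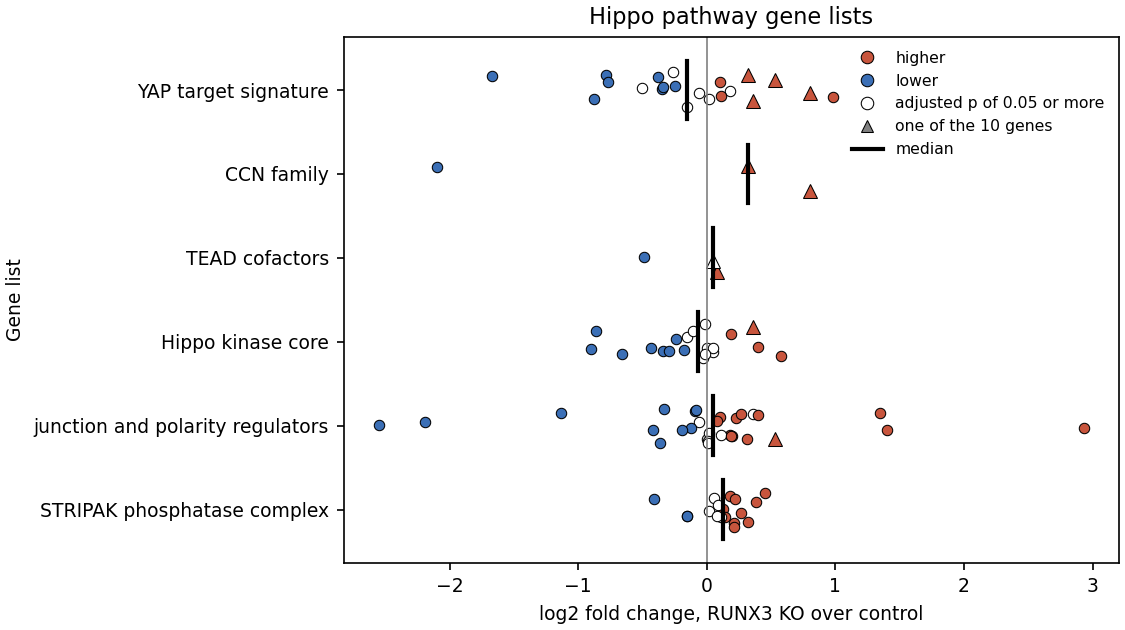
Log2 fold change of RUNX3 KO over control for each tested gene of 6 lists (points, with triangles for the 10 genes, red where higher and blue where lower at an adjusted p under 0.05, white otherwise; vertical position within a list is arbitrary) and the median of each list (bar). In the YAP target signature the triangles lie to the right of 0 and most other points to the left.

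Besides YAP and TAZ, TEAD factors bind vestigial-like proteins, of which VGLL4 competes with YAP. Of the 3 tested cofactors of TEAD, YAP1 was higher, WWTR1 did not pass and VGLL4 was lower. The log2 fold change of YAP1 was only 0.08, and only 4 of 13 alternative fits kept its call. VGLL4 stood at 60.1 and 53.6 CPM in control and 40.0 and 40.7 CPM in RUNX3 KO libraries (log2 fold change -0.49, SE 0.0653, adjusted p = 3.51e-10 by edgeR). The call of VGLL4 was lost without RUNX3 KO replicate 2 (adjusted p = 0.0536 by edgeR). VGLL1, VGLL2 and VGLL3 had at most 1 count in any library.

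Of the Hippo kinase core, 19 genes beside LATS2 were tested, and 8 were lower, 3 higher and 8 did not pass, with a median log2 fold change of -0.11. Over all tested genes 24.4% were lower and 24.5% higher. The called scaffolds of the MST and LATS kinases went both ways. SAV1, the partner of MST1 and MST2, fell from 55.6 and 50.2 CPM to 28.5 and 28.2 CPM (log2 fold change -0.90, SE 0.0719). NF2, which encodes merlin, fell from 57.7 and 56.2 to 32.0 and 30.7 CPM (log2 fold change -0.86, SE 0.0681). TAOK3, a kinase upstream of the MST kinases, fell by 0.66 on the log2 scale (SE 0.0707). The adjusted p of these genes was at most 1.53e-13 by edgeR. Of the WWC scaffolds, named here after their values were seen, WWC1 and WWC2 were higher, with log2 fold changes of 0.40 (SE 0.0509) and 0.19 (SE 0.0375), and WWC3 was lower, at -0.34 (SE 0.0683). All 40 of the tested genes nearest to NF2 had log2 fold changes below 0, with a median of -0.56. Of these, 10 lay at least as far below 0 as NF2. Of the 40 nearest to SAV1, 37 were below 0, with a median of -0.19, and 2 lay at least as far below 0 as SAV1. The neighbours of TAOK3 had a median of -0.03. The kinases STK3 and STK4 had log2 fold changes of 0.05 (SE 0.0939) and -0.01 (SE 0.0536), and their adapters MOB1A and MOB1B of 0.00 and -0.03, none passing the test (edgeR). Counting LATS2 in, 8 genes of the list were lower, against 5 without RUNX3 KO replicate 1 and 3 without RUNX3 KO replicate 2.

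Among 29 tested regulators at junctions and in cell polarity, AMOTL2 aside, 12 were higher, 10 lower and 7 did not pass, with a median log2 fold change of 0.02. This is 75.9% called, against 48.9% of all tested genes (24.5% higher and 24.4% lower). CRB2, a Crumbs polarity protein, rose from 10 and 16 counts to 91 and 110 (log2 fold change 2.93, SE 0.243). DCHS1, a ligand of the cadherin FAT4, fell from 189 and 155 counts to 31 and 45 (log2 fold change -2.19, SE 0.167). WTIP, a LIM protein of the Ajuba family, rose from 188 and 190 counts to 526 and 478 (log2 fold change 1.40, SE 0.0867). The adjusted p of these genes was at most 9.42e-19 by edgeR, and each kept its call in all 13 alternative fits. FRMD6, an upstream activator of the kinases named here after its values were seen, fell by 1.13 on the log2 scale (SE 0.0507). Of the 40 tested genes nearest to FRMD6, 37 were below 0, with a median of -0.19, and 1 lay at least as far below 0. The neighbourhood medians were 0.02 for CRB2, -0.05 for DCHS1 and 0.06 for WTIP. The angiomotins AMOT and AMOTL1, the family of AMOTL2, had log2 fold changes of 0.02 (SE 0.0421) and 0.23 (SE 0.0440), of which the latter passed. With AMOTL2 counted, 13 were higher and 10 lower, against 8 and 6 without RUNX3 KO replicate 1 and 9 and 5 without RUNX3 KO replicate 2.

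The STRIPAK phosphatase complex removes activating phosphates from the MST kinases. Of its 18 tested genes 10 were higher, 3 lower and 5 did not pass, their median log2 fold change was 0.13, and none reached 2-fold. Of all tested genes 24.5% were higher and 24.4% lower. CTTNBP2, a scaffold, rose from 23.5 and 21.6 CPM to 32.1 and 29.3 CPM (log2 fold change 0.45, SE 0.0858), and FAM40B, now called STRIP2, rose by 0.38 (SE 0.114). STRN3, a striatin scaffold, had a log2 fold change of -0.41 (SE 0.0844), close to the median of -0.39 of its 40 nearest tested genes, of which 37 were below 0. The adjusted p of these genes was at most 0.00393 by edgeR. Without either RUNX3 KO replicate, 4 genes of the list were higher and 1 lower. CTTNBP2 lost its call without RUNX3 KO replicate 1, and FAM40B without either RUNX3 KO replicate and with DESeq2.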

How the data were processed

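Poly(A) RNA-seq of HGC-27 cells gave 2 control and 2 RUNX3 KO libraries. The authors aligned the reads to hg19 and deposited raw counts per gene symbol, without normalization. The submitters' processing notes name bcl2fastq, HISAT2 2.1.0 and HTSeq, whereas the paper's methods name STAR and featureCounts. Each table closed with 5 rows for reads without a gene (25.9% to 28.1% of counts), which were left out.

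The tables were read into edgeR 4.0.16 (R 4.3.3). The function filterByExpr (minimum count 10, minimum total 15) left 12967 genes, which were scaled by TMM and compared by glmQLFit and glmQLFTest (prior count 0.125) without a replicate block, with Benjamini-Hochberg adjustment over all tested genes. Each standard error is the size of the log2 fold change over the root of the F statistic, and 95% intervals use the test's degrees of freedom and are unadjusted. They cover the spread between these libraries. Positions and exon lengths came from GENCODE on GRCh37 (hg19). Neighbourhoods are the nearest 20 tested genes with a position on each side. Counts were also simulated for RUNX3 KO against control, and 12926 genes were tested. Recovery was 86.9% for genes changed by 0.5 on the log2 scale and 100% for those changed by 1, with 6 false calls. Only 107 and 93 tested genes were changed by these sizes, all well above the filter on low counts. Every gene had the same small dispersion, without variation between clones or cultures. The simulated shares may therefore not hold for low counts, or where 48.9% of genes are called.

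The 10 genes and the lists were chosen with earlier results of these data known. Named beside the 10 genes were RUNX1, RUNX2, RUNX3 and, from each list, the 3 other genes of largest log2 fold change with an adjusted p under 0.05 and a mean of at least 50 counts. Genes named otherwise were chosen after their values were seen. A cell type marker is not reported here. Alternatives were DESeq2 1.42.0 (test and size factors), library size alone, upper quartile scaling, limma-voom (limma 3.58.1), other filters on low counts, a replicate block, a prior count of 2 and leaving out each library.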

Additional observations from a re-analysis of the deposited data

How the results depend on the processing

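With RNA from 2 libraries a condition, spread between clones or cultures is not measured, and CTGF, at 115 to 220 counts, is the least precise of the 10 genes. TEAD3, TEAD4, CTGF, CYR61 and AMOTL2 kept direction and call in all 13 alternatives run for each. LATS2 lost its call only without RUNX3 KO replicate 1 (0.29, adjusted p = 0.0530 by edgeR). In that fit WWTR1 turned to -0.01 and TEAD2 to 0.00. With each library left out in turn, WWTR1 ranged from -0.01 to 0.10 and TEAD2 from -0.09 to 0.00. YAP1 lost its call in 9 alternatives and TEAD1 in 5. RUNX3 lost its call without RUNX3 KO replicate 2 (adjusted p = 0.0649 by edgeR). Over all genes, 3158 were lower and 3183 higher.

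The cause of the following shifts was not tested. With DESeq2 as the test, 1863 genes were lower and 1829 higher, 0 of the 10 genes was lower, 6 junction and polarity regulators were lower (10 in the main comparison), 1 STRIPAK gene was lower and 6 higher (3 and 10), 0 of the TEAD cofactors was higher (1), and 5 signature genes were lower and 4 higher (8 and 7). Without a filter on low counts, 0 of the 10 genes was lower, 0 TEAD cofactors were higher and 4 signature genes were higher. With upper quartile scaling, 0 TEAD cofactors and 4 signature genes were higher. With library size alone, with 10 counts in every library and with the replicate block, 0 TEAD cofactors were higher, YAP1 being the gene concerned.

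With each library left out in turn, genes called lower ranged from 1378 to 2806 and higher from 1285 to 2745 (1531 and 1483 without RUNX3 KO replicate 1, and the lower bounds without RUNX3 KO replicate 2). Of the 10 genes, 0 to 1 were lower and 5 to 7 higher. The lower bounds of the list counts below came from leaving out a RUNX3 KO library, and for YAP1 among the cofactors also control replicate 1. The Hippo kinase core had 3 to 8 lower, the junction and polarity regulators 5 to 8 lower and 8 to 12 higher, the STRIPAK genes 1 to 3 lower and 4 to 9 higher, the TEAD cofactors 0 to 1 lower and 0 to 1 higher, and the signature 3 to 8 lower and 3 to 5 higher. The WWTR1 to YAP1 ratio of RUNX3 KO minus control was -0.00318 and ranged from -0.0107 to 0.00432, turning positive without control replicate 1 (0.00220) or RUNX3 KO replicate 2 (0.00432). The share of TEAD4 rose by 11.6 to 12.3 percentage points.

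Control and RUNX3 KO libraries share replicate numbers, but deviations of the libraries numbered 1 correlated at 0.0257 between conditions across genes, so the numbers were not taken as pairs. With the replicate block, 6 of the 10 genes were higher and 1 lower, the call of YAP1 being lost (adjusted p = 0.0551 by edgeR).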
